A study of Canis lupus familiaris with 4 samples.

Results

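KLF4, TFF1 and DPP4 are 3 genes of epithelial differentiation that were read on the cDNA array by 1 clone each, so 3 clones of the 13824 printed. Their clones are those whose only gene symbol in the platform annotation is KLF4, TFF1 or DPP4. The genes were picked on the measured ratios themselves, because each reached a 2-fold ratio on each of the 4 arrays in 1 reading of the dye labels. Their ratios are therefore given as a description and no test is made on them.

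The samples are MDCK cells, an established epithelial line from dog kidney. The transfectants E22A and E22B carry E2-2, a basic helix-loop-helix transcription factor whose gene is TCF4, and were taken here as its isoforms A and B. Each was hybridised on 2 arrays against RNA of MDCK-CMV control cells, and on E22B array 2 the label of the control reads only MDCK-CONTROL. Transfectants and control were grown in the same serum-supplemented medium with antibiotics and an antimycotic and were passaged by trypsinisation, and the RNA was amplified before labelling. The labels give no promoter, no expression level of the transfected gene and no number of cultures or cell clones behind an RNA, so each transfectant is 1 biological sample and each SD over its 2 arrays is technical spread.

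KLF4 is a zinc-finger transcription factor that restrains the cell cycle in differentiating epithelia and is known to activate the E-cadherin gene. TFF1 is a small trefoil peptide that gastric surface cells secrete together with mucins, and it is a classic oestrogen-induced gene of breast cancer cells. DPP4, also called CD26, is a membrane serine peptidase that trims peptides after proline or alanine. It is abundant on the brush border of the proximal renal tubule, and it binds adenosine deaminase and fibronectin.

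The ratios compare the dyes of each array, and base 2 of their logarithm is assumed from convention. Which dye is the numerator was not stated in the labels or the table. A ratio was turned where the transfectant carried Cy3, so a positive turned value means higher in the transfectant if Cy5 is the numerator and lower if Cy3 is. Turned values with the sign that CDH1, E-cadherin, has in E22B are said to lie on the E-cadherin side. For E22B the titles and the channel labels name the same dyes. For E22A array 1 the title names Cy5 while the channel labels put the transfectant in Cy3, so E22A was read both ways. Turned by the titles its arrays correlated at r = -0.371 across 8657 features and by the channel labels at r = 0.371, while the E22B arrays correlated at r = 0.407. The direction of E22A is therefore not settled, and turning its pair of arrays together would change the sign of each E22A value below.

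KLF4 stood at -2.48 on E22A array 1, -1.70 on E22A array 2, -2.85 on E22B array 1 and 2.03 on E22B array 2 as deposited (log2 dye ratio, mean of duplicate spots). Its size was largest on E22B array 1 and smallest on E22A array 2. The sign changed between the E22B arrays, whose dyes were exchanged, and was the same on both E22A arrays.

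TFF1 stood at -2.25, -2.20, -2.36 and 2.76 on the same arrays in that order. Its 3 negative values lay close together and the E22B array 2 value was the largest in size.

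DPP4 stood at -1.73, -1.03, -1.34 and 1.09. It had the same order of signs as KLF4 and TFF1, and on E22A array 2 it lay just beyond the 2-fold limit of 1 on the log2 scale.

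**Figure D1:**
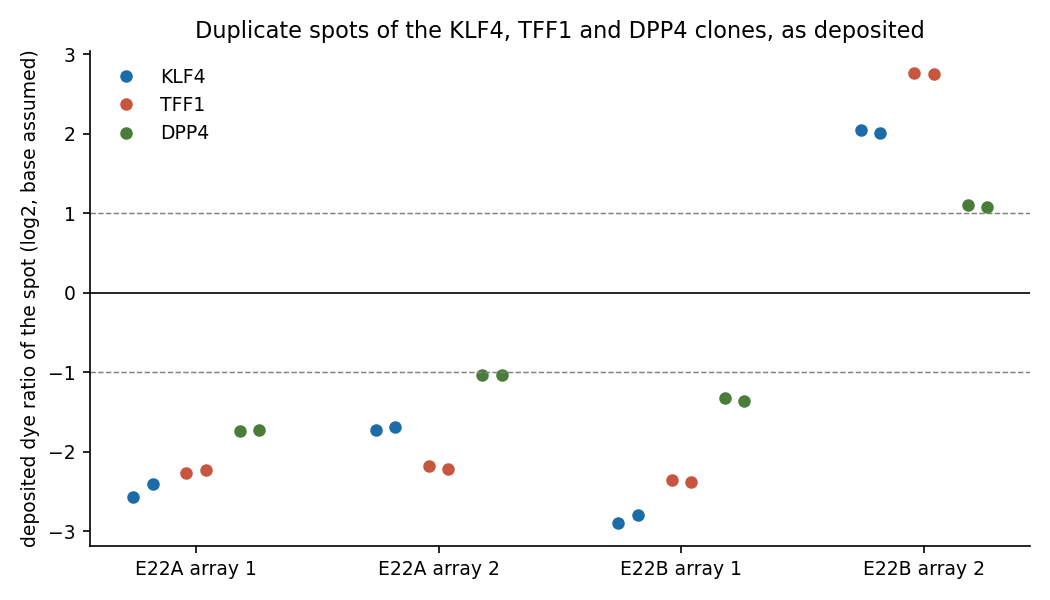
Log2 dye ratio as deposited (vertical axis, base assumed) of each duplicate spot of the KLF4, TFF1 and DPP4 clones on the 4 arrays (horizontal axis), with dashed lines at 2-fold. All spots of the 3 clones are negative on both E22A arrays and E22B array 1 and positive on E22B array 2, and the DPP4 spots on E22A array 2, at -1.04 and -1.03, lie nearest the line.

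The duplicate spots of a clone lay close together. TFF1 spots differed by 0.0111 to 0.0304 and DPP4 spots by 0.00768 to 0.0338 log2 units on the 4 arrays. These differences were below the 95th percentile of all duplicate pairs, which was 0.0934 to 0.135 by array. The KLF4 spots differed by 0.166 on E22A array 1, above that array's 0.0934, and by 0.0378, 0.0977 and 0.0416 on the other arrays, below theirs. Even the widest KLF4 pair, at -2.56 and -2.40, was narrow beside the ratio itself.

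After centring each array on its median, KLF4 was 5.59-fold, 3.26-fold, 7.19-fold and 4.10-fold from equal on E22A array 1, E22A array 2, E22B array 1 and E22B array 2. Among the 4892 genes with a value on all 4 arrays it ranked 8, 9, 5 and 24 by size of ratio. TFF1 was 4.76-fold, 4.59-fold, 5.14-fold and 6.81-fold from equal, with ranks of 12, 4, 12 and 16. DPP4 was 3.33-fold, 2.05-fold, 2.53-fold and 2.15-fold from equal, with ranks of 31, 86, 66 and 110. DPP4 had the smallest ratio of the 3 on each array, and KLF4 and TFF1 changed places. KLF4 was the larger by 0.23 and 0.48 log2 units on the first arrays of E22A and E22B, and TFF1 by 0.49 and 0.73 on the second arrays. A ratio of 1 clone does not give a level, so these orders are orders of ratio and not of expression.

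In E22B, TFF1 stood at 2.56 ± 0.29, KLF4 at 2.44 ± 0.57 and DPP4 at 1.22 ± 0.17 (turned log2 ratio, SD, n = 2 arrays). These are ratios of 5.92-fold, 5.43-fold and 2.33-fold, all on the E-cadherin side. The ranges of TFF1 (2.36 to 2.77) and KLF4 (2.04 to 2.85) overlapped, and that of DPP4 (1.10 to 1.34) lay below both. The 3 genes are among the features at 2-fold or more on the E-cadherin side of both E22B arrays, which are 0.52% of all features. That share comes from the contrast that chose the genes, and nothing is read from it.

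By the channel labels E22A lay on the same side, with TFF1 at 2.22 ± 0.04, KLF4 at 2.09 ± 0.55 and DPP4 at 1.38 ± 0.50 (SD, n = 2 arrays), or 4.67-fold, 4.27-fold and 2.61-fold. In that reading 0.254% of features met the 2-fold rule on the E-cadherin side of both E22A arrays. By the titles the arrays of E22A cancelled, and the means became -0.03 ± 3.15 for TFF1, -0.39 ± 2.96 for KLF4 and -0.35 ± 1.96 for DPP4. None of the 3 met the rule by the titles, where 0.0231% of features did on either side.

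Over all 4 arrays, the 2-fold rule was met on 1 side by 0.162% of features (14) in the channel-label reading, by 0.127% on the E-cadherin side, and by 0% in the title reading. This is the rule that chose the 3 genes, and their count in it is no result.

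**Figure D2:**
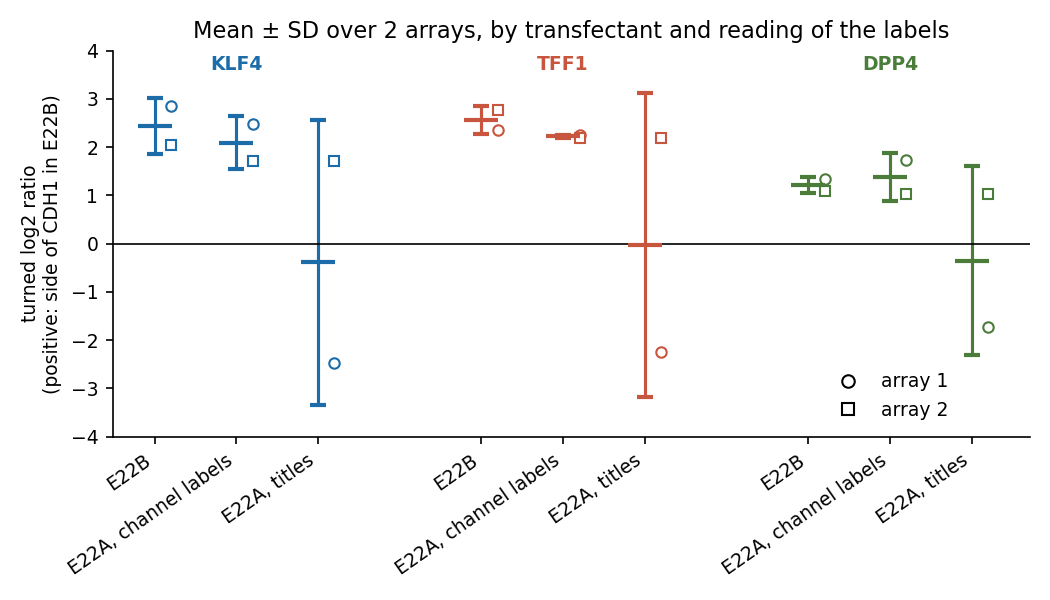
Turned log2 ratio (vertical axis) of KLF4, TFF1 and DPP4 in E22B and in E22A by each reading of the labels, with the mean (thick bar), SD over 2 arrays (whiskers) and the arrays themselves (circle, array 1, and square, array 2). E22B and E22A by the channel labels lie between 1.03 and 2.85, and the title reading places the E22A arrays on opposite sides of 0.

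The E22A and E22B values of a gene share the control RNA and are set side by side without a correlation. By the channel labels E22A minus E22B was -0.35 for KLF4, -0.34 for TFF1 and 0.16 for DPP4 (log2). The arrays of the transfectants overlapped for KLF4 and DPP4. For TFF1 they did not, with E22A at 2.20 to 2.25 and E22B at 2.36 to 2.77, but 50.1% of all features had no overlap between the transfectants in this reading. By the titles the differences were -2.83, -2.59 and -1.57, and for each gene E22A array 1 lay on the opposite side of E22A array 2. With 1 biological sample per transfectant no test of these differences was made.

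The E22B arrays, of opposite dye, allow each ratio to be parted into a portion that turns with the dye and a portion that does not. The portion that does not turn was -0.40 for KLF4, 0.20 for TFF1 and -0.12 for DPP4 on the log2 scale. Over all features its size had a median of 0.0755 and a 95th percentile of 0.407, so KLF4 lay just below that percentile. Each portion was smaller than the one that turned, at 2.44, 2.56 and 1.22. The rule that picked the genes asked for 2-fold ratios of opposite deposited sign on the E22B arrays. That makes the portion that turns the larger one, so nothing is read from this order. By the channel labels E22A carried Cy3 on both arrays, so the portions cannot be told apart there.

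KLF4 was nearer to 0 on the second array of both transfectants, by 0.78 log2 units in E22A and 0.81 in E22B. DPP4 was nearer to 0 there by 0.70 and 0.24. TFF1 was not, with 0.05 in E22A and -0.41 in E22B, the minus sign marking a larger second array. For these 3 genes the E22B difference is the same contrast as the portion that does not turn, so dye and array order cannot be told apart there. Some genes on these arrays were far from 0 only on the first arrays. EPCAM, an epithelial adhesion molecule, lost 2.40 and 2.08 and SPARC, a secreted matrix protein, 3.18 and 3.43. Their E22B portions that do not turn were -1.52 and 1.71, beyond the 95th percentile of 0.407 in size. Whether what separates the first and second arrays also set the KLF4 and DPP4 values was not tested.

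DPP4 was the last gene inside the limit of the rule. Its smallest size over the 4 arrays was 1.03, below ASNS, asparagine synthetase, at 1.08 and KRT14, a basal keratin, at 1.09. Just outside were CTH, cystathionine gamma-lyase, at 0.98 and KLF9, another member of the KLF4 family, at 0.92. TFF1 and KLF4 had the largest smallest sizes of all genes, at 2.20 and 1.70. With the arrays scaled to the same spread the smallest DPP4 size became 0.998, on E22A array 2, so DPP4 then missed the rule. KLF4 and TFF1 stayed inside at 1.65 and 2.12.

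**Figure D3:**
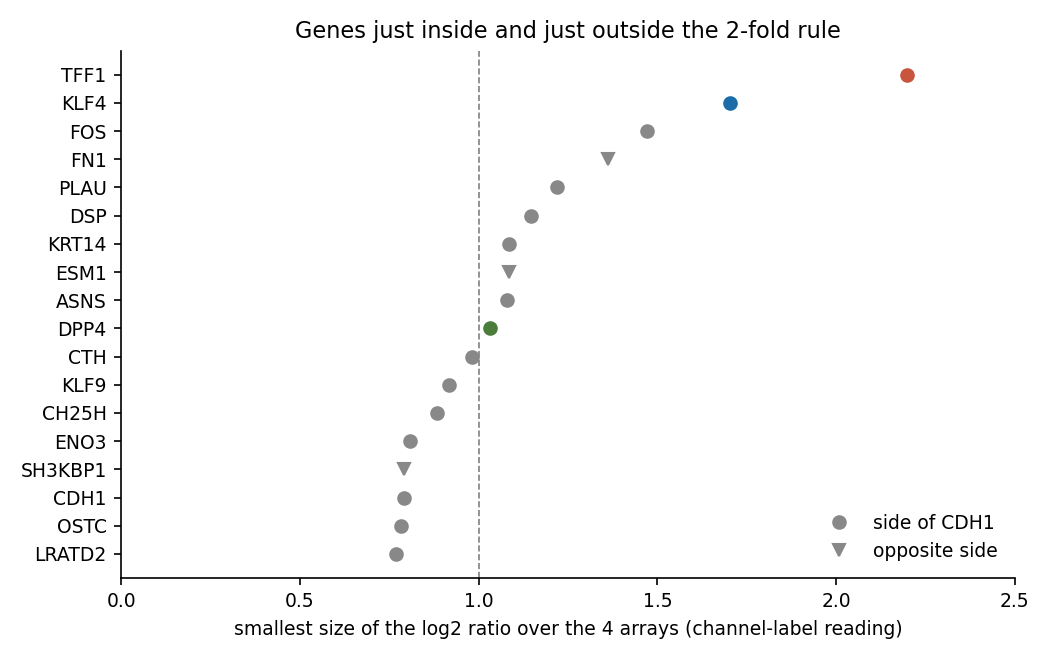
Smallest size of the log2 ratio over the 4 arrays (horizontal axis) for the 10 genes inside and 8 genes outside the 2-fold limit (dashed line) in the channel-label reading, with circles for the E-cadherin side and triangles for the other. TFF1 at 2.20 and KLF4 at 1.70 lead, and DPP4 at 1.03 is the last gene inside.

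The genes with the most similar pattern were found by Euclidean distance over the 4 array values of each gene, which needs no turning. The gene nearest to KLF4 was TFF1 and the gene nearest to TFF1 was KLF4, at a distance of 1.03 log2 units, where the median distance of all genes was 4.63 from KLF4 and 4.82 from TFF1. After TFF1 the genes nearest to KLF4 were LRATD2 (1.39), ASNS (1.79), FOS, an immediate early transcription factor (1.80), and HERPUD1, a membrane protein of endoplasmic reticulum stress (2.02). After KLF4 the genes nearest to TFF1 were FOS (1.23), ASNS (2.17), LRATD2 (2.19) and PLAU, the urokinase-type plasminogen activator (2.21). FOS stood at 1.47, 2.43, 3.11 and 3.31 on the 4 arrays by the channel labels, but a second FOS clone stood at 0.26 and 0.27 in E22A and -0.07 on E22B array 1, with no value on E22B array 2. The likeness of FOS therefore rests on 1 of 2 clones.

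DPP4, whose ratios were smaller, had a median distance to all genes of 2.68. Most features lay near 0, so such a median mainly follows the size of a gene's own ratios. Nearest to DPP4 was KRT14 at 0.31, with 1.60, 1.09, 1.20 and 1.34 on the arrays by the channel labels against 1.74, 1.03, 1.34 and 1.10 for DPP4. ASNS followed at 0.48, PLAU at 0.54, KLF9 at 0.55 and PSMG2, a chaperone of proteasome assembly, at 0.60. These distances rest on 4 arrays that share the control RNA, and large ratios of 1 sign order lie near one another by construction, so they describe these arrays only.

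Of the 24 other KLF and SP factors listed, 9 had a clone and 8 had a value on all 4 arrays. KLF8, a factor known as an E-cadherin repressor, stood at 1.19 and 0.74 in E22A by the channel labels and at 1.19 and 1.13 in E22B. It was the only one of the 8 at 2-fold on both E22B arrays. On the E-cadherin side 0.52% of all features met that rule in E22B and 0.254% in E22A by the channel labels. KLF9, a glucocorticoid- and thyroid hormone-responsive member, stood at 1.39 and 1.03 in E22A and at 0.92 and 1.07 in E22B, so it met the rule in E22A by the channel labels and missed it on 1 E22B array. SP3, a ubiquitous relative, stood at 0.28 and 1.07 in E22A and at 0.73 and 1.18 in E22B, and KLF1, the erythroid factor, at 0.66, 0.23, 0.61 and 0.37.

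By the channel labels these 4 genes, 4 of 8, lay on the E-cadherin side of each of the 4 arrays, and none lay on the other side throughout, where 17.2% and 16.2% of all features did. Turned by the titles, E22A array 1 puts each of the 4, like KLF4, on the side opposite to its other arrays. KLF5, the family member that promotes proliferation in the intestinal crypt, stood at -0.14, 0.07, -0.34 and -0.06. KLF11 had means of 0.11 ± 0.12 in E22A and 0.11 ± 0.16 in E22B, KLF12 of 0.02 ± 0.03 and -0.15 ± 0.09, and SP1 of -0.10 ± 0.36 and 0.21 ± 0.30 (SD, n = 2 arrays, channel labels). The clones of KLF11 and of SP1 lay far apart in E22A, with 0.41 and -0.36 on array 2 for a pair of KLF11 clones and -0.08 and -0.63 for those of SP1. KLF2 and KLF6 had no clone in the annotation used. The median of the 8 was 0.35 in E22B and 0.28 in E22A by the channel labels, beside -0.00255 and -0.00834 over all features, and -0.13 in E22A by the titles.

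**Figure D4:**
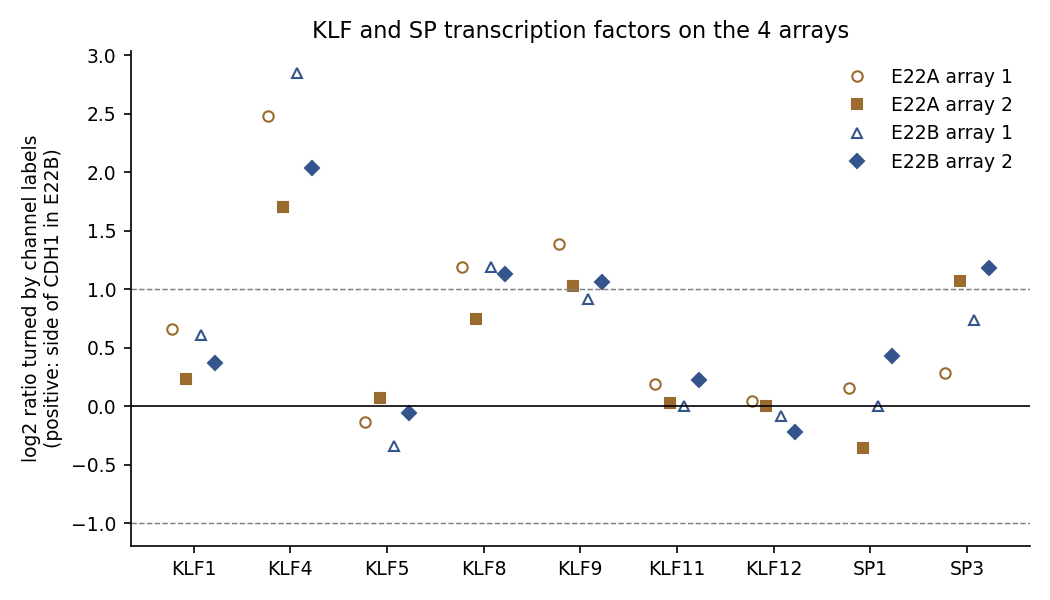
Log2 ratio turned by the channel labels (vertical axis, positive on the E-cadherin side) of the KLF and SP genes measured on all 4 arrays (horizontal axis), 1 point per array, with dashed lines at 2-fold. KLF4 lies highest, at 1.70 to 2.85, KLF8, KLF9 and SP3 follow on the same side, and KLF5, KLF11, KLF12 and SP1 lie around 0.

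To set these genes beside their pathways, transfectants were pooled and their means tested against 0 over all features with limma. This test takes the transfectants as replicates of each other. Arrays of a transfectant were averaged first, so a gene far from 0 on the first or the second arrays alone can reach an unadjusted p under 0.05. EPCAM and SPARC, far from 0 on the first arrays alone, did so by the channel labels. The test called 1 feature by the channel labels (0.0116%), a clone without a single gene symbol, and 0 by the titles (0%). At an unadjusted p under 0.05 there were 1156 features (13.4%) and 283 (3.27%). No gene of the 10 lists around KLF4, TFF1 and DPP4 passed in either direction in either reading. With the 3 genes left out, the unadjusted threshold was met by 4 of 8 KLF and SP genes under the channel labels and by 1, SP3, under the titles.

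Genes linked to KLF4, its reported targets and partners among them, had 16 of 26 members measured, none at 2-fold on both arrays of a transfectant. CDH1 came nearest, at 0.90 and 1.13 in E22A by the channel labels and 1.08 and 0.79 in E22B. A further CDH1 clone, with no value on E22A array 2, stood at 3.36, 3.71 and 0.92 on the other arrays. CTNNB1, beta-catenin, stood at -0.82 ± 0.57 in E22A and -0.59 ± 0.02 in E22B, but its clones disagreed, with E22B values of 0.20 and 0.06 for one and -1.35 and -1.27 for the other. The cell cycle inhibitor CDKN1A, a known KLF4 target, stood at -0.66, -0.21, -0.73 and 0.05. The list's median was -0.02 in E22B and 0.02 in E22A by the channel labels, close to all features. At an unadjusted p under 0.05 (limma) there were 6 genes under the channel labels, 2 of them on the E-cadherin side, and 4 under the titles. Over all features the shares were 13.4% and 3.27%. Among the 6, CDKN1B and ODC1 were far from 0 on the second arrays alone, at 0.04, -1.15, 0.18 and -1.09 and at -0.05, 1.25, -0.02 and 0.79.

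Around TFF1 the list of trefoil peptides and mucus secretion had 7 other members measured of 28. TFF2 and TFF3, its gene neighbours, had no clone in the annotation used. AGR2, a disulphide isomerase needed for mucin folding, stood at 0.58, 0.49, 0.10 and 0.24 by the channel labels and FCGBP, a mucus protein, at 0.03, -0.01, 0.14 and 0.28. MUC2, the main intestinal mucin, stood at 0.26, -0.00211, -0.00545 and 0.03. None was at 2-fold on both arrays of a transfectant, and the median was -0.02 in E22B and -0.05 in E22A by the channel labels. At an unadjusted p under 0.05 there was 1 gene under the channel labels and 0 under the titles (limma), beside 13.4% and 3.27% of all features.

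Of the oestrogen response, the best known inducer of TFF1, 8 of 28 other members were measured. ESR1, the oestrogen receptor, stood at -0.13, -0.21, -0.20 and -0.04 by the channel labels. PGR, the progesterone receptor and a classic target, stood at 0.22, 0.22, 0.94 and 0.45. XBP1, a stress transcription factor, stood at 0.45, 1.02, 0.13 and 0.77, and its other clone, without a value on E22A array 2, at 1.45, 0.52 and 1.89. None met the 2-fold rule. Under the channel labels 4 of the 8, 2 on each side, and under the titles 1 were at an unadjusted p under 0.05 (limma). Over all features the shares were 13.4% and 3.27%. On each array the TFF1 ratio was larger in size than that of every other member of both lists measured on all 4 arrays. TFF1 was picked for its size on these same arrays, so nothing is read from this.

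Around DPP4 the list of peptidases had 8 other members measured of 34, and none was at 2-fold on both arrays of a transfectant. FAP, the closest relative of DPP4, stood at 0.54 and 0.30 in E22A by the channel labels and 0.39 and 0.47 in E22B, on the E-cadherin side of each. The lysosomal relative DPP7 stood at 0.02, 0.00426, 0.12 and -0.09. MEP1A, a brush-border metalloproteinase, stood at 0.23, 0.04, 0.57 and 0.26, and MME, neprilysin, at -0.17, -0.15, 0.04 and 0.08. The median was 0.04 in E22B and 0.06 in E22A by the channel labels. Under the channel labels 1 gene and under the titles 0 were at an unadjusted p under 0.05 (limma), beside 13.4% and 3.27% of all features.

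Among partners and substrates of DPP4, 13 of 24 other members were measured. FN1, fibronectin, was the only one at 2-fold on both arrays of a transfectant. It stood at -2.68, -1.89, -2.08 and -1.36 by the channel labels, opposite to DPP4 on each array, and the share of features at 2-fold on that side of both arrays was 0.116% in E22B and 0.127% in E22A. ADA, adenosine deaminase, stood at -0.04, 0.00203, 0.02 and 0.0143. The chemokine CXCL12, which DPP4 is known to cleave, stood at -0.05, 0.06, 0.13 and 0.14. The median was -0.06 in E22B and -0.02 in E22A by the channel labels. FN1 alone was at an unadjusted p under 0.05 by the channel labels, and 0 genes were by the titles (limma). Over all features the shares were 13.4% and 3.27%.

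Other epithelial genes were read against the 3. Of 10 epithelial transcription factors measured none was at 2-fold, with medians of -0.08 in E22B and 0.12 in E22A by the channel labels. OVOL1 stood at 0.17 ± 0.06 and ESRRA at -0.23 ± 0.13 in E22B, the largest of that list. PAX8 and PAX2, factors of the kidney lineage, stood at 0.05 and -0.07 in E22B. Keratins and epithelial structure had 23 members measured, of which KRT14 and DSP, desmoplakin, were at 2-fold on both arrays of both transfectants by the channel labels, a rule that 0.127% of all features met on the E-cadherin side. DSP stood at 1.17, 1.15, 1.44 and 1.41. Of the other keratins measured, KRT7 stood at -0.99, 0.48, -1.37 and -0.07 and KRT8 at -0.44, 0.25, -0.75 and -0.04. KRT16 lay on the side of KRT14 on each array, at 0.15, 0.30, 0.43 and 0.39, short of 2-fold. KRT10 stood at -0.12, 0.08, -0.24 and -0.13 and KRT20 at 0.26, -0.05, 0.05 and 0.15. The list's median was 0.10 in E22B and 0.01 in E22A by the channel labels. In that reading 6 of 23 lay on the E-cadherin side of each array and 1 on the other, where 17.2% and 16.2% of all features did. At an unadjusted p under 0.05 there were 9 under the channel labels and 1 under the titles (limma), beside 13.4% and 3.27% of all features.

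Of the renal tubule and brush border genes only 4 of 30 were measured. AQP3, a basolateral water channel, stood at 0.80, -0.09, 1.29 and -0.13, far from 0 on the first arrays alone, and SLC22A6, an anion transporter, at -0.33 ± 0.25 in E22B. ANPEP, another brush-border peptidase, had values on the E22B arrays alone, at -0.14 and 0.48 as deposited.

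Of 17 mesenchymal markers measured, FN1 on both transfectants and POSTN, periostin, on E22A by the channel labels were at 2-fold on the side opposite to the 3 genes. On that side 0.116% of all features met the rule in E22B and 0.127% in E22A by the channel labels. POSTN stood at -1.70 and -1.20 in E22A but at 0.52 and 5.59 in E22B. By the channel labels 4 of the 17, FAP among them, lay on the E-cadherin side of each array and 2 on the other. Over all features those shares were 17.2% and 16.2%. The list's median was 0.02 in both transfectants by the channel labels and 0.18 in E22A by the titles. By the channel labels 7 genes, 3 on the E-cadherin side and 4 opposite, were at an unadjusted p under 0.05 (limma). By the titles 0 were, and the shares of all features were 13.4% and 3.27%. SPARC, 1 of the 7, was far from 0 on the first arrays alone. Ratios give no level, so the epithelial identity of the cells could not be checked from them, and a value on all 4 arrays was present for 23 of 26 genes with a clone in the keratin and epithelial structure list and for 17 of 21 among the mesenchymal markers. KRT18 had a value on E22B array 1 alone, and the epithelial KRT19 and the mesenchymal VIM had none.

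**Figure D5:**
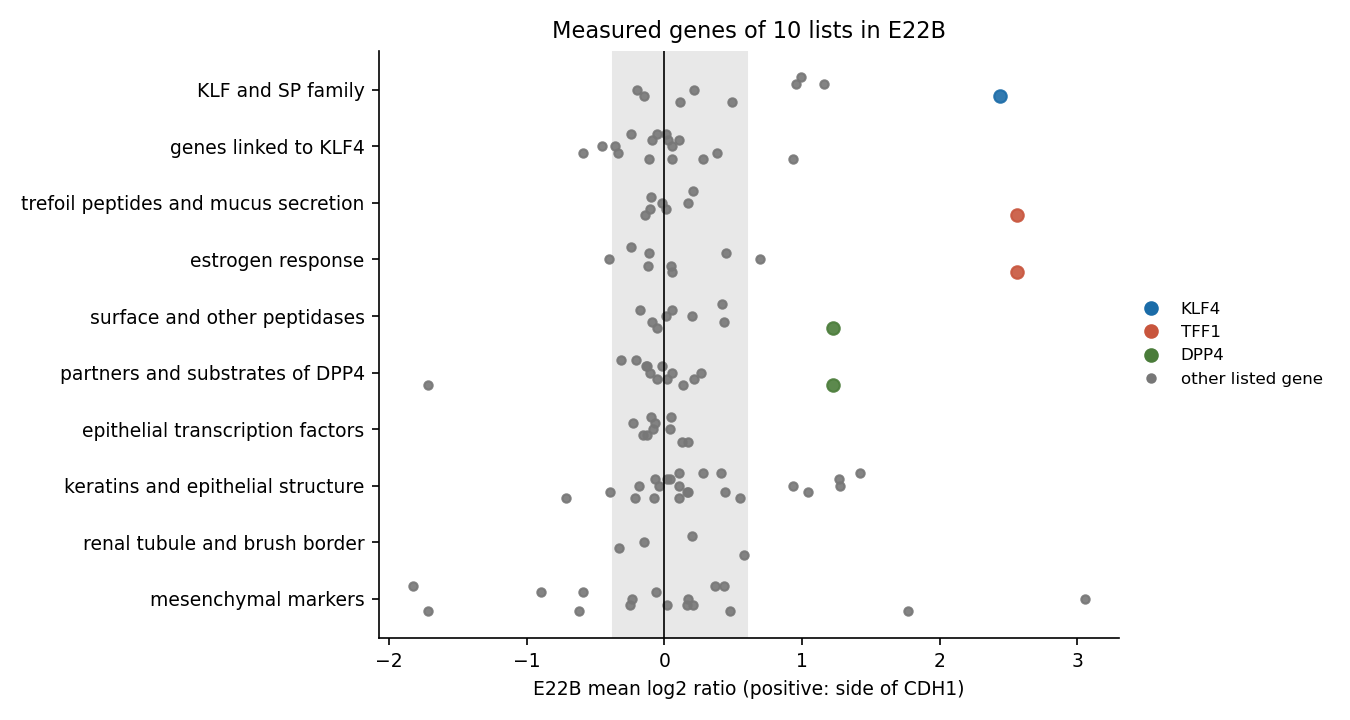
Mean log2 ratio in E22B (horizontal axis, positive on the E-cadherin side) of every measured gene of 10 lists (rows), with KLF4, TFF1 and DPP4 in colour and the middle 90% of all features, from -0.38 to 0.60, shaded. TFF1 at 2.56 and DPP4 at 1.22 stand away from the other genes of their lists except FN1, while KLF8, KLF9 and SP3 lie between KLF4 at 2.44 and the shaded range. The 3 coloured genes were picked for the size of these ratios, so their distance from their lists is no result.

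In the dog gene table of assembly UU_Cfam_GSD_1.0 the 5 coding neighbours on each side of the 3 genes were read as well. KLF4's neighbours ACTL7B and ACTL7A, testis actin-like genes, stood between -0.09 and 0.23 on the 4 arrays by the channel labels. UBASH3A near TFF1 stood between -0.11 and 0.05, and SLC37A1 at 0.33, 0.28, 0.15 and 0.08. Near DPP4, FAP, which lies one coding gene away beyond GCG, was on the E-cadherin side throughout, while GCA stood at -0.19, -0.34, -0.10 and -0.03 and PSMD14, a proteasome subunit, at 0.21, -0.06, 0.26 and -0.53. No measured neighbour was at 2-fold on any array.

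The transfected gene itself, TCF4, stood at -0.27, -0.36, -0.27 and 0.08 by the channel labels. No source used here says which stretch of the gene its clone or the transfected construct holds, so TCF4 checks neither the labels nor the direction. Between 22360 and 23136 of 27648 spots had a value on an array.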

How the data were processed

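The deposited values are log2 dye ratios, 1 column per array, with array medians of -0.00991 to 0.00294. The log base is assumed, and image analysis, background correction, normalisation and the numerator dye are given by no label or header used here. Signal over background was not used here. Each transfectant is 1 biological sample, and its 2 arrays bear on technical precision only. Spots with consecutive numbers and the same annotation were taken as duplicates and averaged. The median of each array was subtracted. Where all 4 arrays gave a value, clones of a gene were averaged (8657 features, 4892 genes). Arrays of a transfectant were averaged as technical repeats before limma 3.58.1 (R 4.3.3, lmFit, eBayes, Benjamini-Hochberg over all features, threshold 0.05). Its code was run on simulated data with shifts larger than the mean ratios of the 3 genes. That run does not show whether the test can call smaller shifts in these data. The control has no sample of its own, so its spread is left out. Gene names are those of the human platform annotation, read with canine RNA, so ratios also depend on hybridisation across species. Named were all clones of the 3 genes, the 5 nearest patterns of each, close relatives, and in each list the genes at 2-fold on both arrays of a transfectant or else the 2 largest in E22B. Further genes (CDKN1A, CDKN1B, ODC1, MUC2, ESR1, MME, ADA, CXCL12, PAX2, PAX8, EPCAM, SPARC, KRT7, KRT8, KRT10, KRT16, KRT20, the threshold and chromosomal neighbours) were named after their values were seen. The 3 genes and the lists were chosen with earlier results of these data known.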

Additional observations from a re-analysis of the deposited data

Results flagged for a closer look

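The sides of 52 genes named in the text and measured on all 4 arrays were read, with KRT7, KRT8, KRT10, KRT16, KRT20, CDKN1B and ODC1 left out. In 1 reading of the labels 11 had both E22A arrays on the side opposite to both E22B arrays. The share of all features that do so was not computed, so nothing is read from this count. No overlap between the transfectants, a looser condition, held for 50.1% of all features by the channel labels. The differences were not tested, since each transfectant is 1 sample. The difference of POSTN, E22A minus E22B, was -4.51 (log2) by the channel labels, and most of it came from E22B array 2. By the same reading the difference was 0.31 for ESRRA, -0.22 for MME, -0.11 for ACTL7B, 0.12 for UBASH3A and 0.17 for KLF12, whose E22A array 2 value was close to 0 at 3.85e-05. By the titles it was 3.66 for SPARC, whose first arrays gave most of it, 0.30 for KLF5, -0.47 for SP1, -0.23 for FCGBP and 0.43 for SLC22A6. UBASH3A on E22A array 1 and SP1 on E22B array 1 were also close to 0, at 0.00146 and 0.00107. KLF4, TFF1 and DPP4 were not among the 11 in either reading.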

How the results depend on the processing

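The means of KLF4, TFF1 and DPP4 moved by less than their SD over 2 arrays under every alternative run (no centring, arrays scaled alike, both duplicate spots required, each clone as a feature, incomplete features kept, each array left out, where 2 arrays make this so by construction), except TFF1 in E22A by the channel labels, 2.37 with the arrays scaled alike. By the titles the SD of E22A is so wide that this says nothing. The counts of KLF and SP genes on each side were the same without centring and with the arrays scaled alike (4 and 0 of 8). The pooled test by the channel labels, 1 feature, gave 0 without centring, 5 with the arrays scaled alike, 9 with both duplicate spots required, 15 with each clone as a feature, 0 with incomplete features kept, 0 with the E22A pair turned, 0 with channel 2 over channel 1, and 0 to 8 with an array left out, the 8 without E22B array 2. At 1.5-fold the count over all 4 arrays by the channel labels was 62 in place of 14. At that limit, added after the data were seen for single transfectants, there were 266 features in E22B in place of 55, 165 in E22A by the channel labels in place of 33 and 28 by the titles in place of 2, where scaling the arrays alike gave 4. With 1 array left out the rule asks less. The 14 became 17 to 24, the 0 by the titles 0 to 23, the 55 became 222 to 264, and the E22A counts 184 to 193 in both readings. The cause of the other moves was not tested.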
